A study of Rattus norvegicus with 12 samples.

Results

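The BCL2 family decides whether a cell opens its outer mitochondrial membrane and dies by apoptosis. Its members fall into 3 classes. The effectors Bax and Bak1 form pores in the membrane, the pro-survival proteins Bcl2, Bcl2l1 (BCL-XL) and Mcl1 hold them in check, and the BH3-only proteins Bcl2l11 (BIM), Bbc3 (PUMA), Pmaip1 (NOXA), Bid and Bad bind the pro-survival proteins or activate the effectors. Cardiomyocytes hardly divide, so the balance of these classes bears on how many of them survive stress. The BH3-only genes are known to be set in part by transcription. BH3-only proteins are also controlled after translation, for example BAD by phosphorylation and BID by cleavage, which RNA does not show.

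The 10 members were taken by gene symbol from tables of 18483 genes, and all 10 passed the filter on low counts. RNA came from NRVMs (neonatal rat ventricular myocytes), primary cells of Sprague-Dawley rat pups within 3 days of birth, enriched on Percoll. There were 4 groups of 3 biological replicates: siNeg, transfected with a control siRNA, siNeg PE, the same with phenylephrine (PE), siSlc39a2, transfected with an siRNA against the zinc transporter gene Slc39a2, and siSlc39a2 PE, with both. PE is an alpha-1 adrenergic agonist that makes cardiomyocytes grow. Per the labels, PE began 12 h after transfection and lasted 36 h. The culture methods of the study give a longer treatment, and the siRNA against Slc39a2 was a single sequence, so effects of the sequence and of the knockdown cannot be told apart.

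Total counts per sample ran from 24065539 to 28603854. Levels of a gene are given as CPM, counts scaled to a common library size after TMM normalization, and levels of different genes are set side by side only in FPKM, which divides by transcript length. The targeted gene Slc39a2 was counted 50, 50 and 59 times in siNeg, 21, 11 and 2 times in siSlc39a2, 95, 198 and 182 in siNeg PE, and 31, 25 and 38 in siSlc39a2 PE, so its groups followed the labels. Summed FPKM of 10 cardiomyocyte markers lay between 17500 and 21000 in all samples. Of these 10, 0 rose and 5 fell with the knockdown (22.8% and 26.4% of all genes tested), Myh6 most (-1.10 on the log2 scale, adjusted p = 4.5e-07). With PE in both arms 0 rose and 4 fell (29.2% and 28.1%), and with PE in siNeg cells 2 rose and 4 fell (24.0% and 25.7%). The sum of 8 fibroblast markers was 2520 to 3440 in siNeg, 1110 to 1220 in siSlc39a2, 1810 to 2360 in siNeg PE and 743 to 1040 in siSlc39a2 PE, and that of 8 macrophage and blood cell markers was 69.8 to 99.1, 41 to 50.9, 34.8 to 45.6 and 28.6 to 34 in this order. The sum of 6 smooth muscle and pericyte markers was 105 to 126, 64.8 to 74.8, 187 to 230 and 240 to 248, and 7 endothelial markers stayed between 2.97 and 4.72. The markers of a list did not all move with its sum. Of the fibroblast markers, 6 of 8 fell with the knockdown while Tcf21 rose (0.34, adjusted p = 0.00236), and with PE in siNeg cells the collagens and Tcf21 fell while Pdgfra (0.74, 3.89e-04) and Dcn (0.44, 0.0297) rose. Among smooth muscle markers Cnn1 rose with PE (2.57, 8.51e-10) and Pdgfrb fell (-0.51, 0.00103). No marker was at 0 in every sample. In bulk RNA, fewer cells of a type and less RNA per cell cannot be told apart, and the part of these other cells in the member values below was not tested.

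Bcl2l11 moved most clearly of all members, and it fell with PE and further with PE and knockdown together. Bcl2 and Pmaip1, both at low levels, were the members that rose by more than 1 on the log2 scale. Bak1 and Mcl1 rose moderately with the knockdown, Bad fell with the knockdown and with PE, and Bcl2l1 passed the test in none of the 4 comparisons.

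Promoter windows of 250 bases before to 50 bases after the start were found in RefSeq (build GRCr8) for 8 members, and for Bax and Bbc3 none were used here. Rnor_6.0 is the build in the submitters' processing notes, so the coordinates here are those of RefSeq alone. The windows were searched on both strands for 5 motifs, chosen with the values known. Bcl2l11 and Bad, the members that fell in all 4 comparisons, are shown because they were the members whose windows hold the FOXO motif GTAAACA, which stands in 3.78% of 33469 rat windows. Bak1 is shown because it rose with the knockdown and holds the IRF motif AANNGAAA at a pair of places. That motif is common, at 26.4% of windows, and also stood in windows of Bcl2, Bcl2l1 and Bcl2l11. NFkB motif GGGANTTCC, in 1.64% of windows, was found in that of Pmaip1, and neither CRE (TGACGTCA, 1.83%) nor AP-1 (TGANTCA, 7.33%) was found in a window of a member. A match describes the letters and shows no binding. The 250 bases before the start are given 5′ to 3′ on the strand of the gene, with the FOXO motif of Bcl2l11 and Bad and the IRF motifs of Bak1 in capitals.
Bcl2l11, chr3:135819792-135820041, plus strand: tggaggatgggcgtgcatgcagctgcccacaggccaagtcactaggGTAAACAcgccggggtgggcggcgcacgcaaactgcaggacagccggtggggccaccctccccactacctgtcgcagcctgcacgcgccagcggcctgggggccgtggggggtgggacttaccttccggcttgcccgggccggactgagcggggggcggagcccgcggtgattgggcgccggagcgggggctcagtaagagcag
Bad, chr1:213562864-213563113, plus strand: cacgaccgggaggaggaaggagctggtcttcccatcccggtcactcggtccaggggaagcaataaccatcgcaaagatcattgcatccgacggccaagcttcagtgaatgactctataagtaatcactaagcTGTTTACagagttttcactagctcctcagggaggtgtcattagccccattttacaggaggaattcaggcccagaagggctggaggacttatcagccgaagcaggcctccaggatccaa
Bak1, chr20:5110975-5111224, minus strand: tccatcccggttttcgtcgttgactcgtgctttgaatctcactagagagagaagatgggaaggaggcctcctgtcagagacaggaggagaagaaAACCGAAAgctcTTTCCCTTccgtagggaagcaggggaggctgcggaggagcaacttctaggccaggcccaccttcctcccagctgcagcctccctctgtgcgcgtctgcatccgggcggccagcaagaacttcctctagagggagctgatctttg
Counted from the start, the FOXO motif began at position -204 in Bcl2l11 and, on the opposite strand, at position -118 in Bad. In Bak1 the IRF motifs began at position -156 and, on the opposite strand, at position -144.

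**Figure D1:**
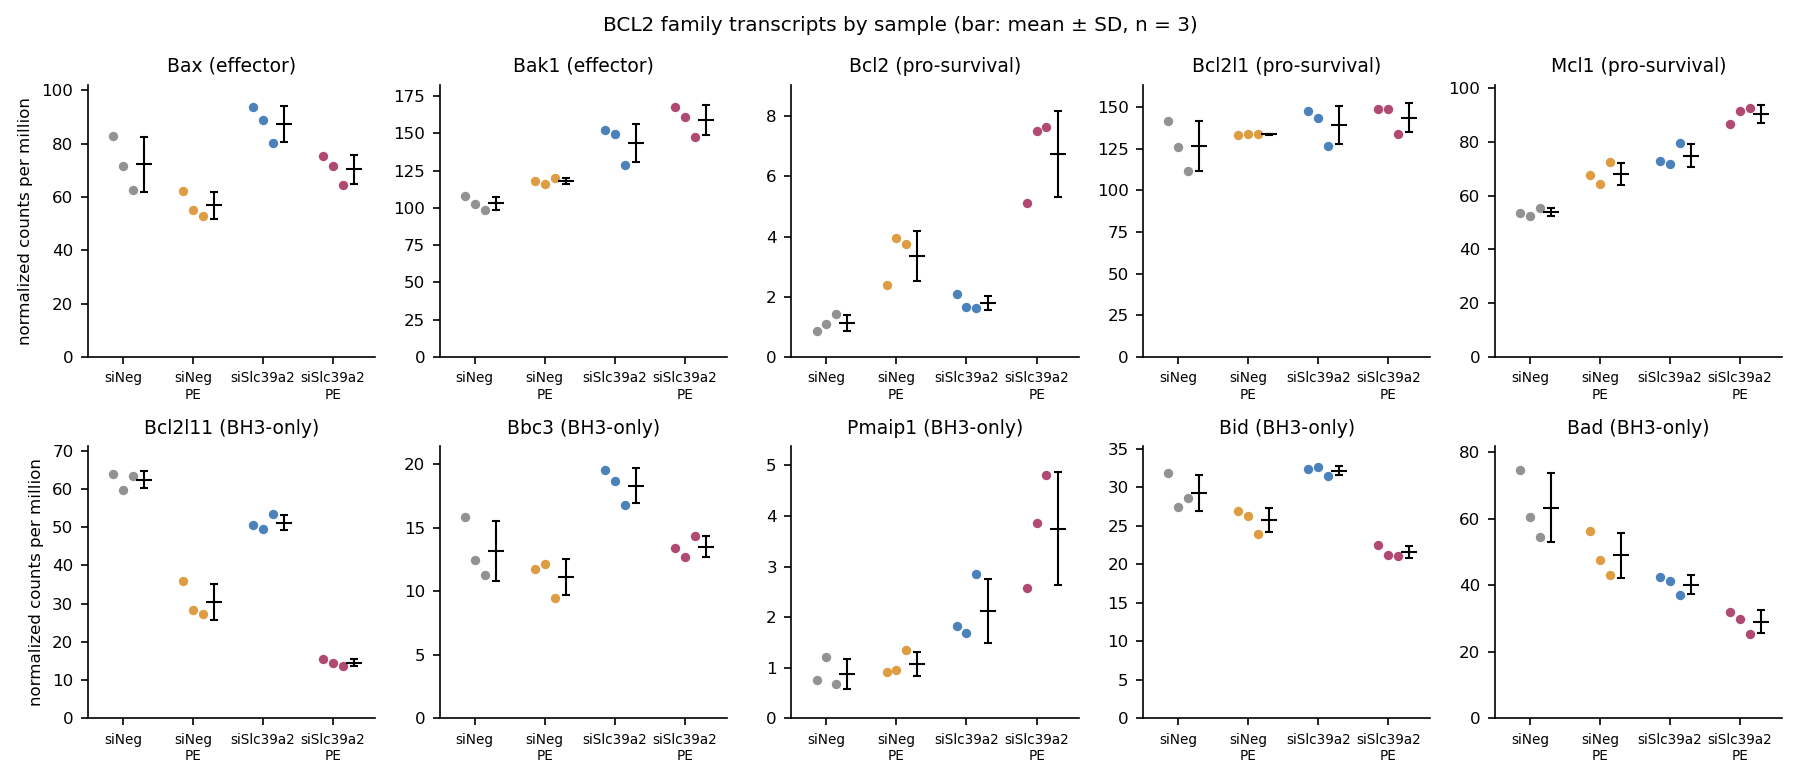
CPM (y axis, from 0, own scale per gene) of the 10 BCL2 family members in each of the 12 samples (points) by group (x axis), with mean ± SD of 3 replicates as bars. Bcl2l11 falls from 62.4 in siNeg to 14.6 in siSlc39a2 PE while Bcl2 rises from 1.13 to 6.76, and the 4 groups of Bcl2l1 overlap.

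Per length, Bax was the most abundant member, with a median of 89.3 FPKM over the 12 samples. It was followed by Bcl2l1 (median 68.7 FPKM), Bak1 (67.8), Mcl1 (56.8) and Bad (48.9). Bbc3 (median 10.3 FPKM), Bcl2l11 (9.73) and Bid (4.84) were lower, and Bcl2 (1.01) and Pmaip1 (0.58) were the lowest. Ranges over samples of Bcl2l1 (55.3 to 73.6 FPKM), Bak1 (49.8 to 88.1) and Mcl1 (38.4 to 72.8) overlapped. Of the 3 pro-survival members, Bcl2 was the lowest, between 0.31 and 3.06 FPKM in any sample.

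The first comparison asks what loss of Slc39a2 did without the stimulus. In siSlc39a2 against siNeg, 5 of the 10 members rose and 2 fell at an adjusted p below 0.05, where 22.8% of the 13967 genes tested rose and 26.4% fell. With a log2 fold change beyond 1 as well, the rule of the study, 1 member (Pmaip1) rose and none fell, against 4.57% and 5.21% of all genes. The median log2 fold change was 0.37 over the members and -0.02 over all genes. Both effectors, 1 of the 3 pro-survival genes and 2 of the 5 BH3-only genes rose, and the 2 that fell were BH3-only.

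With PE in both arms, in siSlc39a2 PE against siNeg PE, 5 members rose and 3 fell, where 29.2% of genes rose and 28.1% fell. Beyond a log2 fold change of 1, Bcl2 and Pmaip1 rose and Bcl2l11 fell, against 6.03% and 5.58% of all genes. The median was 0.29 over the members and 0.01 over all genes.

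For PE alone, siNeg PE against siNeg, 3 members rose (Bak1, Bcl2 and Mcl1) and 3 fell (Bax, Bcl2l11 and Bad), where 24.0% of genes rose and 25.7% fell. Beyond a log2 fold change of 1 there were Bcl2 above and Bcl2l11 below, against 3.80% and 2.80% of all genes. The 6 calls went down to 3 when siNeg PE replicate 2 or siNeg PE replicate 3 was left out, since Bax, Bak1 and Bad lost theirs. In the knockdown cells, siSlc39a2 PE against siSlc39a2, 3 members rose and 5 fell, where 30.7% of genes rose and 29.3% fell. Bcl2 and Bcl2l11 again passed a log2 fold change of 1, one in each direction, against 6.34% and 4.17% of all genes. Medians over members and over all genes were -0.05 and -0.01 in siNeg cells and -0.13 and 0.01 in siSlc39a2 cells. These comparisons share groups with each other, so their values are not independent. Of all genes tested, 58.5% had no overlap between siSlc39a2 and siNeg samples, and 63.5% had none with PE in both arms. For PE the share was 59.8% in siNeg cells and 65.2% in siSlc39a2 cells. A lack of overlap, given for members below, was thus common.

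**Figure D2:**
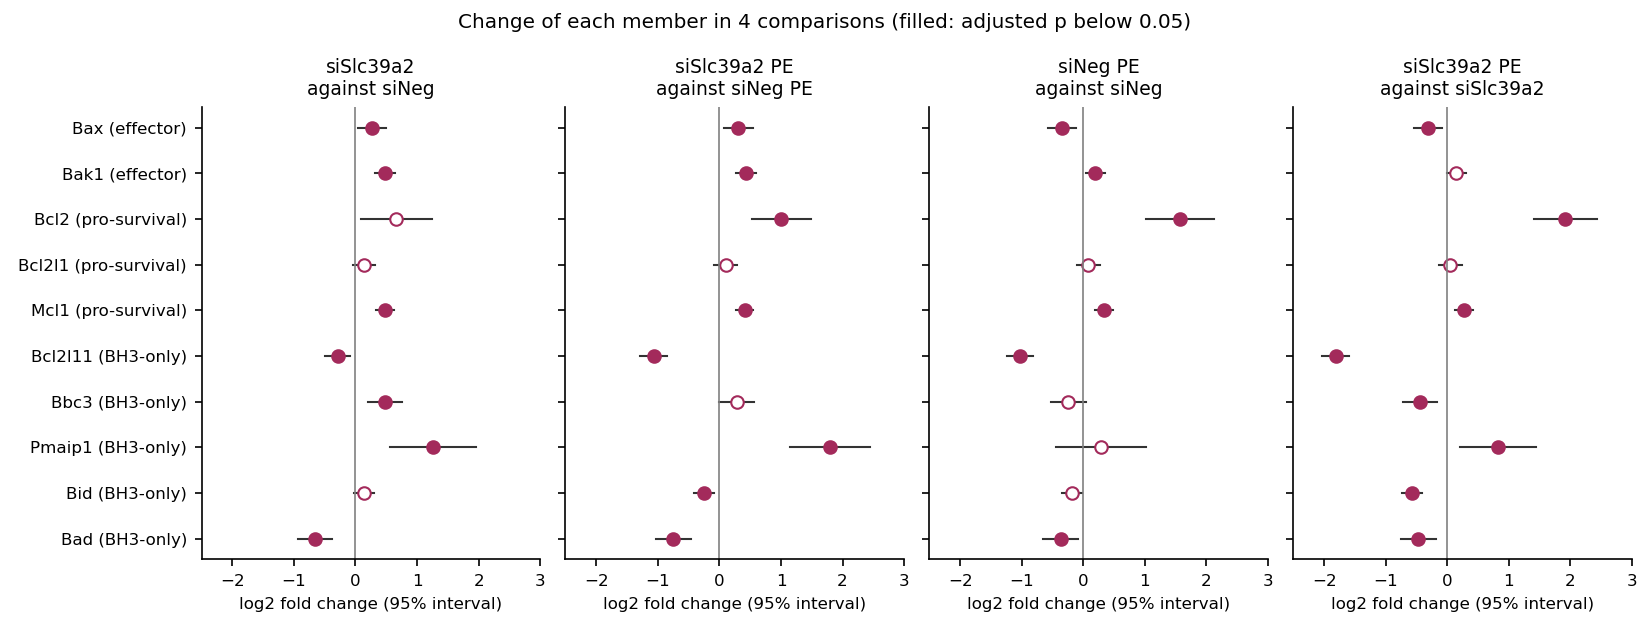
Log2 fold change (x axis) of each member (y axis, with its class) in 4 comparisons, with 95% intervals from the edgeR fit as lines. Filled points have an adjusted p below 0.05. Bcl2l11 lies farthest below 0 in both PE comparisons (-1.03 and -1.81), Bcl2 farthest above (1.57 and 1.91), and Bcl2l1 crosses 0 in all 4.

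Of the effectors, Bak1 rose with the knockdown. Its CPM were 108, 103 and 98.6 in siNeg, 152, 150 and 129 in siSlc39a2, 118, 116 and 120 in siNeg PE, and 168, 161 and 148 in siSlc39a2 PE. All knockdown samples lay above all siNeg samples, with or without PE. The log2 fold change was 0.48 (standard error 0.07, adjusted p = 1.45e-04) without PE and 0.43 (standard error 0.07, adjusted p = 2.7e-04) with PE. PE itself added less, 0.19 (adjusted p = 0.0414) in siNeg cells and 0.14 (adjusted p = 0.0992) in siSlc39a2 cells. Bak1 in siNeg PE against siNeg lost its call without siNeg replicate 2 or 3, any siNeg PE replicate, siSlc39a2 PE replicate 2 or siSlc39a2 replicate 2, with adjusted p between 0.0502 and 0.122. Its call in siSlc39a2 PE against siSlc39a2 was gained without siSlc39a2 PE replicate 3 (adjusted p = 0.0494) and with limma (0.0162 and 0.0247 at the larger and smaller pseudocount).

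Bax went up with the knockdown and down with PE, by small amounts. It had 83.0, 71.5 and 62.4 CPM in siNeg, 93.6, 88.7 and 80.2 in siSlc39a2, 62.3, 55.2 and 52.8 in siNeg PE, and 75.2, 71.5 and 64.4 in siSlc39a2 PE. The siNeg samples overlapped those of each other group except siNeg PE, whose highest sample lay just under the lowest of siNeg. The log2 fold changes were 0.27 (adjusted p = 0.0455) and 0.31 (0.0238) for the knockdown without and with PE, and -0.35 (0.0163) and -0.31 (0.0207) for PE in siNeg and siSlc39a2 cells. In the order of levels, siSlc39a2 PE (70.4 CPM) and siNeg (72.3) did not differ beyond their spread (adjusted p = 0.745). That pair of groups differed in 75.3% of all genes. Counts of Bax were not whole in 11 of 12 samples, so some of its reads were split with other genes and its values are uncertain by that share.

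Each call of Bax was lost when some single samples were left out. Without PE, the knockdown call was lost when siNeg replicate 2 or 3, siNeg PE replicate 2, siSlc39a2 PE replicate 2, or siSlc39a2 replicate 1 or 2 was left out (adjusted p from 0.059 to 0.182). With PE, it was lost without siNeg PE replicate 2 or 3 or siSlc39a2 PE replicate 1 or 2 (0.063 to 0.0845). The call for PE was lost in siNeg cells without siNeg replicate 1 or siNeg PE replicate 2 or 3 (0.0548 to 0.0785) and with limma on log2(FPKM + 0.1) (0.0506), and in siSlc39a2 cells without siSlc39a2 PE replicate 3 or siSlc39a2 replicate 1 or 2 (0.0566 to 0.0828). The direction was kept throughout.

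Among pro-survival genes, Mcl1 rose in all 4 comparisons. Its protein is short-lived and depends on steady transcription. Mcl1 had 53.7, 52.6 and 55.5 CPM in siNeg, 73.1, 71.7 and 79.8 in siSlc39a2, 67.7, 64.2 and 72.4 in siNeg PE, and 86.7, 91.6 and 92.9 in siSlc39a2 PE. siNeg lay below and siSlc39a2 PE above all other samples, and siNeg PE and siSlc39a2 overlapped (log2 difference 0.14, adjusted p = 0.113). Those 2 middle groups differed in 45.5% of all genes. Log2 fold changes were 0.47 (standard error 0.07, adjusted p = 8.62e-05) and 0.41 (standard error 0.07, adjusted p = 2.16e-04) for the knockdown, and 0.34 (adjusted p = 0.00151) and 0.27 (adjusted p = 0.00355) for PE. Each kept direction and call in all 19 other settings.

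Bcl2, the founding pro-survival gene, was low and rose with PE. It had 22 to 36 counts in siNeg, 42 to 60 in siSlc39a2, 65 to 112 in siNeg PE and 137 to 218 in siSlc39a2 PE. Its CPM were 0.869, 1.10 and 1.42 in siNeg, 2.07, 1.66 and 1.64 in siSlc39a2, 2.40, 3.94 and 3.74 in siNeg PE, and 5.11, 7.52 and 7.64 in siSlc39a2 PE, with no overlap between any of the groups. On the log2 scale PE raised it by 1.57 (standard error 0.26, adjusted p = 3.85e-04) in siNeg cells and 1.91 (standard error 0.24, adjusted p = 2.99e-05) in siSlc39a2 cells. The knockdown raised it by 1.01 (standard error 0.22, adjusted p = 0.00203) with PE. Without PE the value was 0.67 (standard error 0.27, adjusted p = 0.0544), which passed the test in 9 of 19 other settings, among them those without siNeg replicate 3 (adjusted p = 0.0351), siNeg PE replicate 1 (0.0333) and siSlc39a2 PE replicate 1 (0.0306). The fold changes on log2(FPKM + 1) were smaller, 0.78 for PE in siNeg cells, since the added 1 is large against a gene at this level.

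Bcl2l1, which codes for BCL-XL, was the steady member. Its CPM were 142, 126 and 112 in siNeg, 148, 144 and 126 in siSlc39a2, 134, 134 and 134 in siNeg PE, and 149, 149 and 134 in siSlc39a2 PE, and all groups overlapped. For siSlc39a2 against siNeg the 95% interval of the log2 fold change was -0.05 to 0.32 (adjusted p = 0.201), and for siNeg PE against siNeg it was -0.11 to 0.27 (adjusted p = 0.453). With both treatments the intervals were -0.08 to 0.29 for the knockdown under PE (adjusted p = 0.322) and -0.14 to 0.23 for PE under the knockdown (adjusted p = 0.666). The knockdown passed the test without siNeg replicate 1 (0.23, adjusted p = 0.0393). Small changes in either direction thus fit within the spread, and its counts, not whole in any sample, are uncertain by the reads it shared.

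BH3-only genes did not move as a class. Bcl2l11 and Bad fell in every comparison, Pmaip1 rose in 3, Bbc3 rose with the knockdown and fell with PE in siSlc39a2 cells, and Bid fell in the 2 comparisons of siSlc39a2 PE. Bcl2l11 codes for BIM, which binds all pro-survival proteins and can activate BAX and BAK directly. Its CPM were 64.0, 59.8 and 63.4 in siNeg, 50.5, 49.6 and 53.4 in siSlc39a2, 35.9, 28.3 and 27.3 in siNeg PE, and 15.5, 14.5 and 13.7 in siSlc39a2 PE. The 4 groups followed each other without overlap, in that order from highest to lowest, and all neighbours passed the test. PE lowered it by -1.03 on the log2 scale (standard error 0.10, adjusted p = 6.33e-06), and in siSlc39a2 cells by -1.81 (standard error 0.10, adjusted p = 4.28e-08). The knockdown lowered it by -0.29 (standard error 0.10, adjusted p = 0.024) without PE and by -1.06 (standard error 0.10, adjusted p = 2.32e-06) with PE.

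The knockdown effect on Bcl2l11 differed with PE. The interaction, the knockdown effect with PE less that without, was -0.78 on the log2 scale (standard error 0.14, 95% interval -1.08 to -0.48, adjusted p = 0.00745). It was the only member of 10 to pass that test, which 3.61% of all genes passed in either direction. It passed in all 18 other settings, between -0.97 and -0.65. Bid came next, at -0.39 (adjusted p = 0.0694). It passed without siNeg replicate 1 (adjusted p = 0.0322), with DESeq2 (0.0189) and with the replicate number as a block (0.0208). The smaller knockdown effect without PE did not hold in 7 of 19 settings, among them those without siNeg replicate 1 or 3 or siSlc39a2 replicate 1 or 2 (adjusted p from 0.06 to 0.0736), no filter (0.0537) and limma (0.0736 and 0.119 at the larger and smaller pseudocount).

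Bad, which binds BCL2 and BCL-XL, fell in all 4 comparisons. It had 74.7, 60.5 and 54.5 CPM in siNeg, 42.4, 41.2 and 37.0 in siSlc39a2, 56.1, 47.5 and 43.1 in siNeg PE, and 31.9, 29.9 and 25.3 in siSlc39a2 PE. Knockdown samples lay below all siNeg samples with the same treatment, while siNeg and siNeg PE overlapped. The log2 fold changes were -0.65 (standard error 0.13, adjusted p = 0.0011) and -0.75 (standard error 0.13, adjusted p = 3.53e-04) for the knockdown, and -0.37 (adjusted p = 0.0298) and -0.47 (adjusted p = 0.00787) for PE. PE in siNeg cells lost its call without siNeg replicate 1 or siNeg PE replicate 2 or 3 (adjusted p from 0.0849 to 0.144). It was also lost with limma on log2(FPKM + 1) (-0.24, adjusted p = 0.0788) and log2(FPKM + 0.1) (-0.24, 0.1), and with the 2 groups alone (-0.35, 0.0591).

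Pmaip1 codes for NOXA, which binds MCL1 in particular. It rose with the knockdown from a low level, with 17 to 32 counts in siNeg, 50 to 73 in siSlc39a2, 25 to 37 in siNeg PE and 69 to 132 in siSlc39a2 PE. Its CPM were 0.750, 1.21 and 0.670 in siNeg, 1.83, 1.69 and 2.85 in siSlc39a2, 0.921, 0.950 and 1.36 in siNeg PE, and 2.57, 3.86 and 4.80 in siSlc39a2 PE. Knockdown samples were above all siNeg samples, whether or not PE was given. The log2 fold change was 1.26 (standard error 0.32, adjusted p = 0.00567) without PE and 1.80 (standard error 0.30, adjusted p = 2.73e-04) with PE. PE gave 0.29 (adjusted p = 0.497) in siNeg cells and 0.82 (adjusted p = 0.0233) in siSlc39a2 cells, where the call was lost without siSlc39a2 PE replicate 2 or 3 or siSlc39a2 replicate 1 or 2 (adjusted p from 0.058 to 0.109). With limma that value was 0.19 on log2(FPKM + 1) (adjusted p = 0.137) and 0.35 on log2(FPKM + 0.1) (0.176). FPKM of this gene did not always follow its counts. In siSlc39a2, 53 counts gave 0.65 FPKM in replicate 1 and 50 counts gave 1.12 FPKM in replicate 2. The part of this in the limma values was not tested.

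Bbc3, the p53 target PUMA, was highest in siSlc39a2. Its CPM were 15.8, 12.4 and 11.3 in siNeg, 19.5, 18.6 and 16.8 in siSlc39a2, 11.7, 12.1 and 9.50 in siNeg PE, and 13.4, 12.7 and 14.3 in siSlc39a2 PE. The siSlc39a2 samples lay above those of all other groups. It rose by 0.48 (standard error 0.13, adjusted p = 0.0083) with the knockdown and fell by -0.44 (standard error 0.13, adjusted p = 0.00988) with PE in siSlc39a2 cells. PE in siNeg cells gave -0.24 (adjusted p = 0.137), and the knockdown with PE gave 0.28 (adjusted p = 0.0846), which passed the test without siNeg replicate 1 (adjusted p = 0.0404).

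Bid links death receptors to mitochondria once caspase-8 has cleaved it. It had 31.8, 27.4 and 28.6 CPM in siNeg, 32.4, 32.6 and 31.5 in siSlc39a2, 26.9, 26.3 and 23.99 in siNeg PE, and 22.45, 21.28 and 21.05 in siSlc39a2 PE. siSlc39a2 PE was below all other samples. Bid fell with PE in siSlc39a2 cells by -0.58 (standard error 0.08, adjusted p = 5.18e-05) and with the knockdown under PE by -0.25 (standard error 0.08, adjusted p = 0.0131). The latter call was lost without siNeg PE replicate 1 (adjusted p = 0.0508). The knockdown without PE gave 0.14 (adjusted p = 0.153) and PE in siNeg cells -0.19 (adjusted p = 0.0579), which passed the test without siNeg replicate 2 (adjusted p = 0.043) and with limma (0.01 and 0.0133 at the larger and smaller pseudocount).

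**Figure D3:**
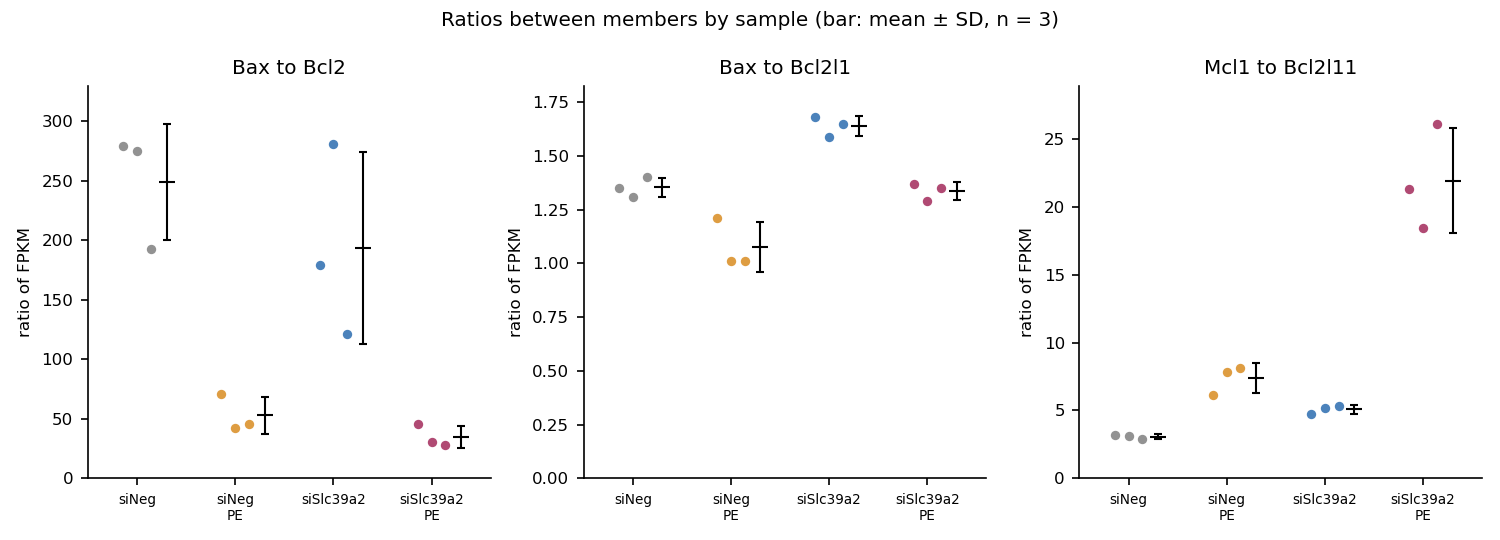
Ratio of FPKM (y axis, from 0) between 2 members in each sample (points) by group (x axis), with mean ± SD of 3 replicates as bars. The ratio of Bax to Bcl2 is lowest in the PE groups, that of Bax to Bcl2l1 stays between 1.01 and 1.68, and that of Mcl1 to Bcl2l11 is highest in siSlc39a2 PE.

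Ratios within a sample are free of scaling between samples, and they are given as a description. The ratio of Bax to Bcl2 FPKM was 279, 275 and 193 in siNeg, 179, 281 and 121 in siSlc39a2, 70.6, 42.5 and 45.8 in siNeg PE, and 45.4, 30.5 and 28.1 in siSlc39a2 PE. All PE samples lay below all samples without PE, and the knockdown groups overlapped their controls. Lengths behind the Bcl2 values differ between samples and enter this ratio. Against Bcl2l1, more abundant than Bcl2 per length, Bax had a ratio of 1.31 to 1.40 in siNeg and 1.59 to 1.68 in siSlc39a2. With PE it was 1.01 to 1.21 in siNeg PE and 1.29 to 1.37 in siSlc39a2 PE. The length behind Bcl2l1 enters each ratio to that gene. Its mean was 1871 bases in siNeg and 2062 in siSlc39a2, while that of Bax was 789.7 and 791.7. The ratio of Mcl1 to Bcl2l11, whose proteins bind each other, was 2.90 to 3.20 in siNeg, 4.71 to 5.36 in siSlc39a2, 6.12 to 8.15 in siNeg PE and 18.4 to 26.1 in siSlc39a2 PE, with no overlap. That of Bad to Bcl2l1 went from 0.993 to 1.07 in siNeg to 0.461 to 0.509 in siSlc39a2 PE.

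The length by which the authors divided each count can be read back from count and FPKM, and it was not the same in all samples. For Bid it was 5447 to 5616 bases in the siNeg and siNeg PE samples. In the siSlc39a2 and siSlc39a2 PE samples it was 4894 to 5219 bases, with no overlap. The share of all genes with such a lack of overlap in length was not computed, so nothing particular to Bid is read from it. The mean for Bcl2l1 was 1871 bases in siNeg, 2062 in siSlc39a2, 1983 in siNeg PE and 2117 in siSlc39a2 PE. Bcl2l11 ranged from 3764 to 4951 bases with overlap of all groups, and Bax from 766 to 805 bases. The length behind Bcl2, a gene of few counts, was 3130, 4203 and 1939 bases in siSlc39a2, 2300 to 3405 in siNeg and 2113 to 2548 in the PE samples, so it enters the spread of the Bax to Bcl2 ratio: 49 counts gave 0.41 FPKM in siSlc39a2 replicate 2 and 42 counts gave 0.90 FPKM in replicate 3. Per-length values of Bid therefore moved apart from its counts: it had 5.04 ± 0.25 FPKM (SD, n = 3) in siNeg and 6.75 ± 0.07 in siSlc39a2, while CPM were 29.3 ± 2.3 and 32.2 ± 0.6. TMM factors, 0.927 to 0.96 in siNeg and 1.04 to 1.07 in siSlc39a2, enter the CPM and not the FPKM, and add to that gap. Which transcripts were used was not measured here.

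**Figure D4:**
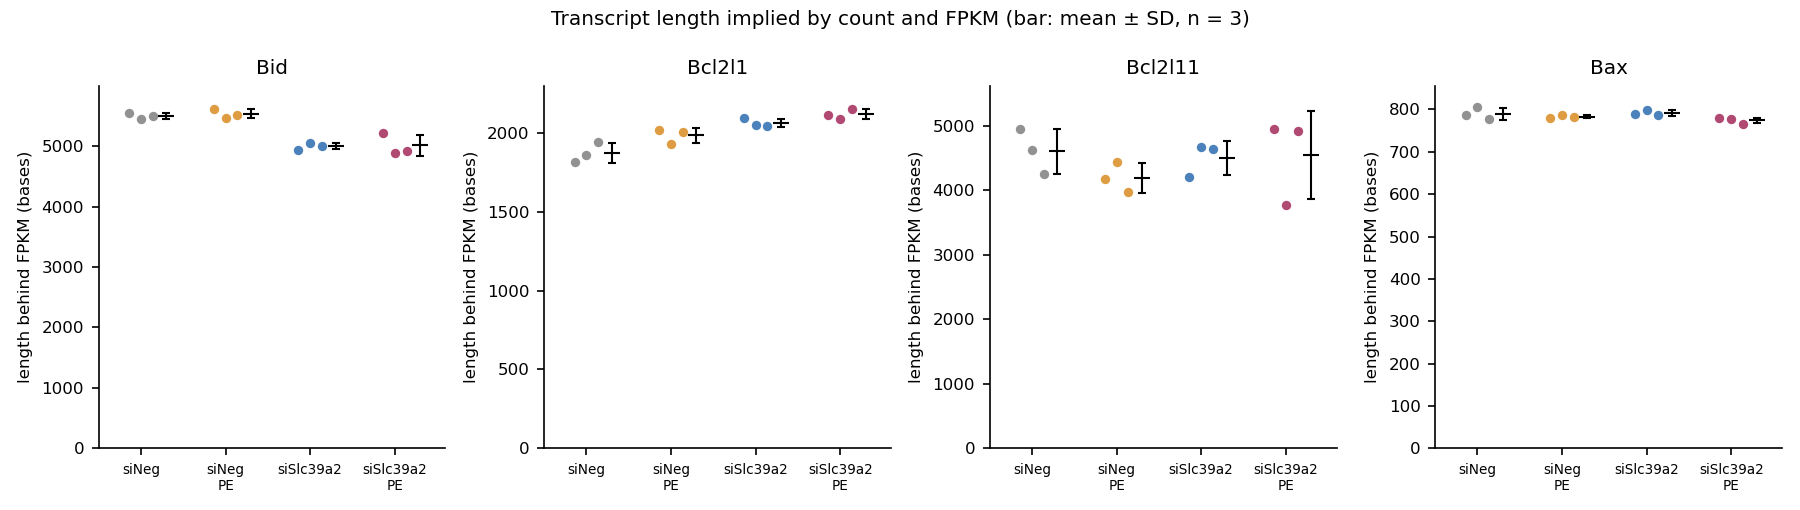
Length behind the FPKM values in bases (y axis, from 0) of 4 members in each sample (points) by group (x axis), with mean ± SD of 3 replicates as bars. Bid is shorter in both siSlc39a2 groups (4894 to 5219 bases) than in both siNeg groups (5447 to 5616), and Bax stays between 766 and 805.

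Across the 12 samples, log2 CPM of Bcl2 and Bcl2l11 had a Pearson r of -0.971, Mcl1 and Bad -0.949, Bcl2l11 and Bid 0.913, and Bax and Bbc3 0.91. These describe the same 12 libraries and the same 4 groups, whose differences they carry. Among the genes most like Bcl2l11 in that measure were Dhrs7c (r = 0.995) and Adra1b (0.992), the latter an alpha-1 adrenergic receptor. Those most like Bcl2 were Ror1 (0.987), Eya4 (0.984) and Hirip3 (0.984), and those most like Pmaip1 were Desi2 (0.978), Dnajb4 (0.977) and Oga (0.974). Counts of Desi2 and Oga were not whole.

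Around the 10 members, 6 lists of apoptosis genes were read in the same fit. The remaining BCL2 family and BH3-like genes, 13 tested, had 5 that rose and 2 that fell with the knockdown (22.8% and 26.4% of all genes), and 4 and 3 with PE in siNeg cells (24.0% and 25.7% of all genes). Nothing particular to a list is read from such counts. Bmf, a BH3-only gene like Bcl2l11, fell in all 4 comparisons, from 47.3 ± 3.2 CPM in siNeg (SD, n = 3) to 31 ± 2.8 in siSlc39a2, 23.9 ± 2.0 in siNeg PE and 11.1 ± 0.8 in siSlc39a2 PE. Its log2 fold changes were -0.61 (adjusted p = 1.34e-04) and -1.11 (1.13e-06) for the knockdown and -0.99 (6.33e-06) and -1.48 (1.46e-07) for PE. Bok, a relative of Bax and Bak1, rose with PE by 1.77 (adjusted p = 6.23e-08) and 1.33 (2.88e-07). Bcl2l2, a pro-survival gene, rose with the knockdown by 0.47 (adjusted p = 9.07e-05) and 0.36 (5.66e-04), and Bcl2a1, with 12 to 16 counts in siNeg and 26 to 49 in siSlc39a2, by 1.21 (0.00479) without PE. Bik, a BH3-only gene, fell with PE by -0.63 (adjusted p = 0.0162) and -1.02 (7.19e-04). Bnip2 rose with the knockdown by 0.34 (adjusted p = 0.0199) without PE and 0.51 (0.00151) with PE in both arms.

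Downstream of the membrane, 4 of the 18 tested genes of outer membrane, apoptosome and caspases rose and 5 fell with the knockdown, near the shares of all genes (22.8% and 26.4%), and 2 rose and 9 fell with PE in siNeg cells (24.0% and 25.7% of all genes). Casp12, a caspase of the inflammatory group, rose with the knockdown by 1.76 (adjusted p = 6.08e-05) and 2.49 (2.42e-06). Parp1, a caspase substrate, fell by -0.45 (adjusted p = 1.02e-05) and -0.53 (1.96e-06). Apaf1, the apoptosome scaffold, rose by 0.92 (adjusted p = 0.00149) with the knockdown under PE.

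The death receptor list showed 9 of 11 tested genes up, Tnf among them, and none down with the knockdown without PE, and 6 up and none down with PE, while PE in siNeg cells gave 1 up and 2 down. Shares of all genes up and down were 22.8% and 26.4%, 29.2% and 28.1%, and 24.0% and 25.7% in these comparisons. Its median log2 fold change with the knockdown was 0.95, against -0.02 over all genes. Tnfsf10, the ligand TRAIL, went from 0, 0 and 1 counts (siNeg) to 197, 176 and 167 (siSlc39a2), and from 0, 1 and 0 to 63, 68 and 89 with PE. Cflar, which codes for the caspase-8 inhibitor FLIP, rose with the knockdown by 1.96 (adjusted p = 7.37e-07) without PE and 1.81 (1.18e-06) with PE in both arms. Casp8, whose product cleaves BID, rose by 1.57 (7.74e-05) and 1.37 (1.89e-04) in the same comparisons. Tnf counts were 462, 0.04 and 328 (siSlc39a2) against 7, 0 and 0 (siNeg), far apart within the group and not whole, so no fold change is given.

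Of the inhibitors of apoptosis and their antagonists, 4 of 8 rose and 1 fell with the knockdown (22.8% and 26.4% of all genes), and 3 rose and 1 fell with PE in siNeg cells (24.0% and 25.7%). Xaf1, an interferon-induced antagonist of XIAP, rose by 5.61 (adjusted p = 8.2e-12) and 5.59 (1.47e-11), from 57, 50 and 34 counts in siNeg to 2723, 2635 and 2194 in siSlc39a2. Birc3, the inhibitor cIAP2, rose by 2.64 (3.34e-09) and 2.27 (1.73e-08), and Septin4, which codes for the XIAP antagonist ARTS, fell by -1.27 (8.73e-06) and -1.39 (8.88e-06).

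For p53 and its target genes, 7 of 16 rose and 1 fell with the knockdown (22.8% and 26.4% of all genes). Gadd45a (1.02, adjusted p = 9.07e-07), Mdm2 (0.77, 4.82e-05) and Zmat3 (0.71, 1e-05) rose most. The gene that fell was Sesn1 (-0.43, adjusted p = 0.00121), and the others of the list were not called. With PE in both arms 9 rose and 2 fell (29.2% and 28.1% of all genes), and for PE in siNeg cells 2 rose and 2 fell (24.0% and 25.7%). Among other regulators of the family, 4 of 15 rose and 2 fell with the knockdown, against 22.8% and 26.4% of all genes. Ddit3, which codes for CHOP and is known to induce Bcl2l11 and Bbc3 under endoplasmic reticulum stress, rose by 1.29 (adjusted p = 6.71e-07) without PE, and E2f1 fell by -1.12 (4.13e-07) with the knockdown under PE and rose by 1.27 (5.04e-07) with PE in siNeg cells. Trib3 (-0.68, adjusted p = 0.0226), Atf4 (-0.41, 0.0344) and Sesn2 (-0.64, 0.0124) were the list genes with a lower interaction.

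With the knockdown under PE, 29.2% of all genes rose and 28.1% fell. There, 3 rose and 3 fell of the 13 remaining BCL2 family and BH3-like genes. Of the 18 outer membrane, apoptosome and caspase genes, 7 rose and 7 fell. The 8 inhibitors gave 5 up and 2 down, and the 15 regulators 4 and 4. PE in siSlc39a2 cells, where 30.7% rose and 29.3% fell, gave 4 up and 3 down, 6 and 9, 4 and 3, and 4 and 9 in the same lists, 2 and 4 of the 11 death receptor genes and 6 and 5 of the 16 p53 genes. The 15 regulators had 3 up and 6 down with PE in siNeg cells (24.0% and 25.7% of all genes). Of the list genes named, Bnip2, Apaf1, Birc3, Septin4, Cflar, Tnf, Ddit3, Atf4 and Sesn2 had counts that were not whole in some samples and are uncertain by the reads they shared.

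**Figure D5:**
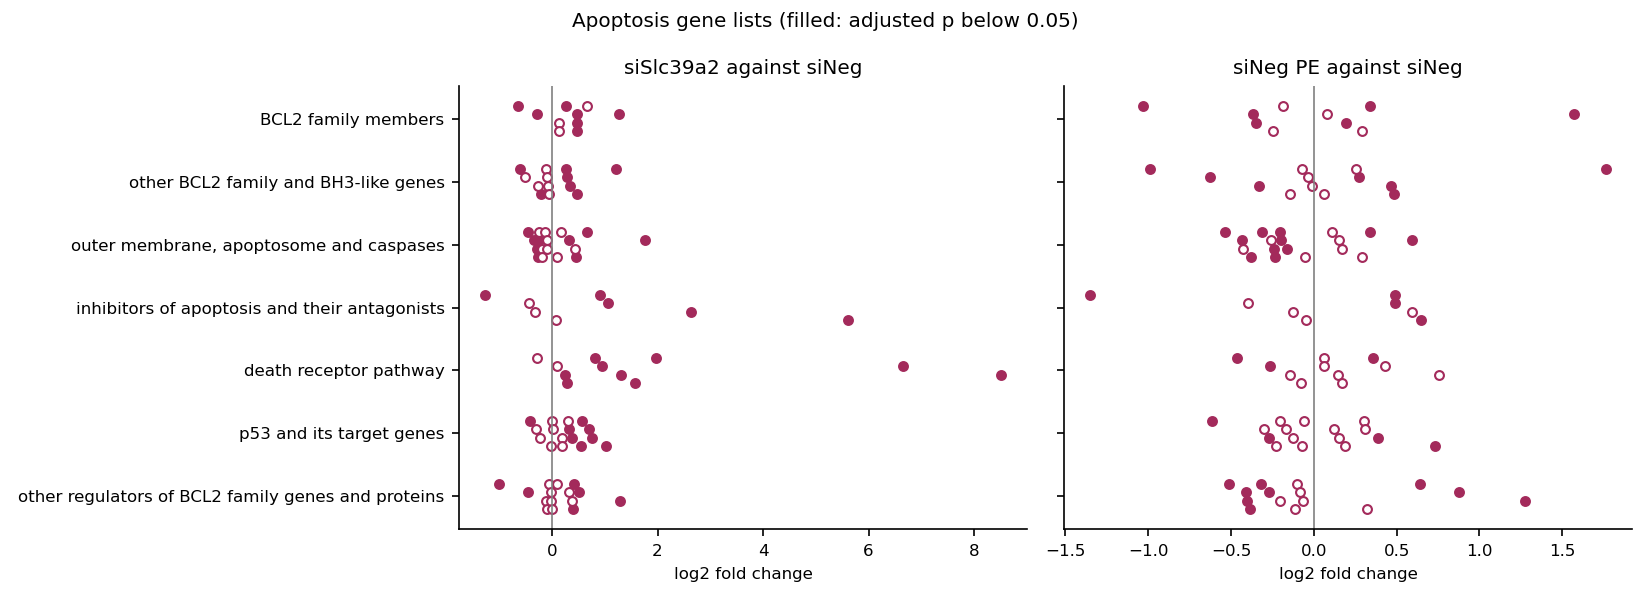
Log2 fold change (x axis, own scale per panel) of the 10 members and of the genes of 6 apoptosis lists (y axis) for the knockdown and for PE, each point a gene and filled where the adjusted p is below 0.05. The widest changes are in the death receptor and inhibitor lists with the knockdown, where the 2 points farthest right are Tnfsf10 and Tnf, both near 0 counts in siNeg.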

How the data were processed

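RNA of 12 samples was sequenced. The authors deposited expected counts per gene, not normalized, and FPKM values of the same 18483 genes, with replicates kept apart. Submitters' processing notes name HISAT, Bowtie2 and the build Rnor_6.0. Versions, the counting program and the annotation are not given in the sources used here. Of the expected counts, 78.7% were whole, and others share reads between genes, which makes those genes uncertain.

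Expected counts were rounded. filterByExpr kept 13967 genes and left out 4516. Groups were compared in one TMM-normalized fit of 4 groups (8 residual degrees of freedom) by the quasi-likelihood F-test of edgeR 4.0.16 in R 4.3.3, with Benjamini-Hochberg adjustment over all genes tested and calls at an adjusted p below 0.05. All adjusted p-values in the text are from that test unless another is named. The standard error is the log2 fold change over the square root of F. The study names limma after normalizeBetweenArrays, which was run as an alternative (limma 3.58.1 on quantile-normalized log2(FPKM + 1) and log2(FPKM + 0.1)). Other alternatives were DESeq2 1.42.0, RLE size factors, no filter, the 2 groups alone, the replicate number as a block, each sample left out, and a log2 fold change beyond 1. CPM are counts scaled by library size and TMM factor. Correlations used log2 CPM with a prior count of 2. The fits were tested on simulated data. The p-values rest on the spread between samples within groups, pooled over the 4 groups of the fit and shared in part between genes. Totals of 24065539 to 28603854 counts per sample left Bcl2 and Pmaip1 as the members with few counts, as low as 22 and 17 in a sample.

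Named genes were the 10 members, Slc39a2, at most 3 genes per list and comparison with the largest change among those called, and, for each member called beyond a log2 fold change of 1, the 3 genes with the highest correlation. Some genes this rule allows are not reported here. Members and lists were chosen with earlier results of these data known. Promoter sequences are from RefSeq (GRCr8).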

Additional observations from a re-analysis of the deposited data

Results flagged for a closer look

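The knockdown effect on Bcl2l11 differed between cells with and without PE. It was -0.29 on the log2 scale without PE and -1.06 with PE, and the difference was -0.778 (standard error 0.14, adjusted p = 0.00745 from the interaction term in edgeR). All 3 siSlc39a2 PE samples were below all siNeg PE samples, and all 3 siSlc39a2 samples below all siNeg samples. Such a lack of overlap, in either direction, was found for 63.5% and 58.5% of all genes tested in these 2 comparisons. Groups of 3 were too small for a check of single samples that stand apart.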

How the results depend on the processing

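Of 940 member values set against another setting, 857 kept direction and side of the threshold, 44 lost the call, 23 gained it and 16 changed sign, none of the 16 called in either fit. Of 30 called values, 21 kept direction and call in every one of these settings. Cause was not tested where a value moved. With a log2 fold change beyond 1 required, the counts of members called fell to 1 (siSlc39a2 against siNeg), 2 (siNeg PE against siNeg), 3 (siSlc39a2 PE against siNeg PE), 2 (siSlc39a2 PE against siSlc39a2) and 0 (interaction), by construction of the stricter rule. Leaving out single samples gave 5 to 8, 3 to 6, 7 to 9, 6 to 8 and 1 to 2 members called in the same order. The 3 was reached without siNeg PE replicate 2 or 3, and the 2 without siNeg replicate 1, where Bid joined Bcl2l11. DESeq2 also called 2 members in the interaction.

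The sign changes were all near 0. Bcl2l1 went to -0.0125 and -0.0127 for the knockdown under PE (limma, both pseudocounts). With single samples left out, it ran from -0.00102 to 0.17 for PE in siNeg cells, from -0.0191 to 0.0944 for PE in siSlc39a2 cells and from -0.125 to 0.0465 for the interaction. The interaction of Bax went to -0.0038 with no filter and -0.0467 with limma at either pseudocount, and ran from -0.0754 to 0.13 with single samples left out, and that of Bad from -0.235 to 0.0122. No scaling moved the median of all genes by over 0.1.

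Replicate numbers were not taken to pair the samples, since of 18 same-numbered pairs 8 had a correlation of deviations over 0.1 (range -0.0904 to 0.32), and no source used here ties the numbers. The mean was 0.192 for the same number and -0.0946 for different numbers between siNeg and siNeg PE, and 0.00613 and -0.00305 between siNeg and siSlc39a2. In 19 of 36 sets of 1 sample against the 3 of another group, the same number correlated best. With the replicate block, 8, 7, 9 and 9 members were called in the 4 comparisons, against 7, 6, 8 and 8 without it, and 2 against 1 in the interaction. CPM of Bax and of Bad fell from replicate 1 to 2 to 3 within each of the 4 groups. Under the block the adjusted p of Bax was 0.000994 and 0.000415 for the knockdown without and with PE. For PE it was 0.000284 in siNeg cells and 0.000341 in siSlc39a2 cells, and that of Bad in siNeg cells was 0.000495. These calls thus depend on whether the numbers pair the samples.

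Depth limits Bcl2 and Pmaip1, with 22 to 36 and 17 to 32 counts in siNeg.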
